A study of Mus musculus with 24 samples.

Results

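Mouse embryonic stem cells (ESCs) lacking Tet1 and Tet2 (Tet1-/-:Tet2-/-, DKO) were compared between day 6 after removal of leukemia inhibitory factor (LIF) and day 0, when LIF was still present. The comparison used 4 of the 24 RNA-seq libraries of the study, chosen by their labels: the day 0 and day 6 libraries of DKO clones DKO_5.11 and DKO_5.12. Each clone was compared with itself, and where 2 values stand side by side below, that of clone DKO_5.11 comes first. The other groups used for comparison were wild type (WT, 3 clones at both days), Tet1-/- (3 libraries per day, of which clones 2.1 and 2.4 were sequenced at both days) and Tet2-/- (2 clones at both days), with values also given for cells lacking all 3 Tet genes (TKO, 2 clones). All groups, WT included, carry an IRES-eGFP cassette at Pou5f1 (Oct4) and descend from a single clone of a 129/SVj line; the mutants were made with Cas9 and guide RNAs and picked as single cell clones. Cells were grown without feeder cells on gelatin in medium with serum and LIF, plated at low density, and then kept for 6 days in the same medium without LIF. Error estimates describe the spread between clones of 1 parental line, pooled over the genotypes, and no separate cultures of a clone were labelled. A fit that leaves out a DKO or Tet2-/- library has 1 clone of that genotype to compare between days, which is then assumed to vary like the clones of the other genotypes. The libraries of day 0 and day 6 were deposited as separate tables and it is not given whether they were sequenced together, so an effect of day and a difference between preparations cannot be told apart.

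TET enzymes oxidise 5-methylcytosine in DNA and so take part in the removal of methylation; Tet1 and Tet2 are the members that ESCs express most, while Tet3 is the member of the oocyte and of many differentiated cells. LIF acts through its receptor, gp130 and JAK kinases on STAT3 and holds mouse ESCs in the naive state, which resembles the epiblast before implantation. When LIF is removed in serum, cells leave this state, pass through a formative and primed condition like that of the epiblast after implantation, and some go on towards primitive streak, mesoderm and endoderm.

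Each gene was disrupted with Cas9 and 1 guide, whose site is shown here because it defines the genotype. Both sites lie on the minus strand of mm9, in coding exons of genes on the same strand. Lower case letters are the guide, 5' to 3', and capitals the adjacent PAM.
Tet1, chr10:62296293-62296315: ggctgctgtcagggagctcaTGG
Tet2, chr3:133148617-133148639: gaaagtgccaacagatatccAGG

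Because a short indel leaves most of the transcript to be counted, RNA level does not check the genotype. In CPM, the count of a gene relative to the TMM-scaled library size, Tet1 was at 373 and 231 CPM at day 0 and 157 and 80.9 CPM at day 6 (log2 fold change -1.38 ± 0.34 SE, adjusted p = 0.00436). In WT it was at 431, 368 and 220.4 CPM and then 114, 108 and 125 CPM. Tet2 was at 55.7 and 22.3 CPM at day 0 and 9.99 and 5.73 CPM at day 6 (log2 fold change -2.23 ± 0.30 SE, adjusted p = 9.50e-05). The WT values were 94, 87.9 and 93.6 CPM and then 12.9, 12.3 and 16 CPM. Reads of both disrupted genes remained in all 4 libraries and were fewer at day 6, and both DKO clones lay below every WT clone for Tet2 on each day. Tet3, the intact member, rose from 6.26 and 6.1 CPM to 13.3 and 13.1 CPM (log2 fold change 1.10 ± 0.27 SE, adjusted p = 0.00502), with values between 13.3 and 21 CPM in WT at day 6. Without clone DKO_5.11, Tet3 (adjusted p = 0.0562) was no longer called. Without clone DKO_5.12, Tet1 (adjusted p = 0.0756) and Tet3 (adjusted p = 0.0641) were no longer called. Without the replicate block, Tet1 (adjusted p = 0.165) was no longer called.

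The 4 libraries held 24228097 and 21729346 counts at day 0 and 28249721 and 34219640 at day 6, and the other 20 libraries 18400463 to 37290208. No library of the comparison stood apart by its 10 highest genes, which took 4.61% to 5.08% of counts in the 4 libraries. A count of 0 allows up to 3 counts, on average 0.14 CPM per library at day 0 and 0.090 CPM at day 6, and this limit and all counting intervals cover counting error only. At day 0 the defining ESC genes were high, with Pou5f1 at 738 and 719 CPM, Sox2 at 699 and 668 CPM and Zfp42 at 1171 and 1005 CPM. Markers of fibroblasts and of endothelial and blood cells were mixed at day 0: Lum, Dcn, Col6a1, Hbb-bh1, Fli1 and Emcn were at 0 in both libraries and Col1a1 was at 2.04 and 1.53 CPM, whereas Thy1 was at 27.9 and 28.5 CPM, Timp1 at 24.4 and 23.9 CPM and Pecam1 at 53.6 and 73.8 CPM. The summed level of the 27 fibroblast matrix genes was 576 and 549 CPM and that of the endothelial and blood genes 126 and 137 CPM.

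Of 15639 genes tested, 4614 (29.5%) were called between the days, at an adjusted p-value under 0.05 and a change over 2-fold in edgeR's quasi-likelihood test with clone as a block. 2929 (18.7%) were higher and 1685 (10.8%) lower at day 6; these shares are the background for every list below. The median log2 fold change was 2.11 among higher genes, -1.62 among lower genes and -0.01 over all genes. Of the called genes, 849 rose and 189 fell by more than 3 on the log2 scale. The mean TMM-scaled CPM of genes called higher summed to 2.59% of the nominal total at day 0 and 9.66% at day 6. For genes called lower these values were 13.3% and 4.93%. TMM-scaled CPM do not sum to the nominal total, so these values are not exact shares of the counts. The TMM factors of the DKO libraries were 0.929 and 0.935 at day 0 and 1.08 and 1.08 at day 6. Scaling by library totals in place of TMM moved the median of all genes to 0.20 and the share of calls that were higher from 63.5% to 75.0%.

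**Figure D1:**
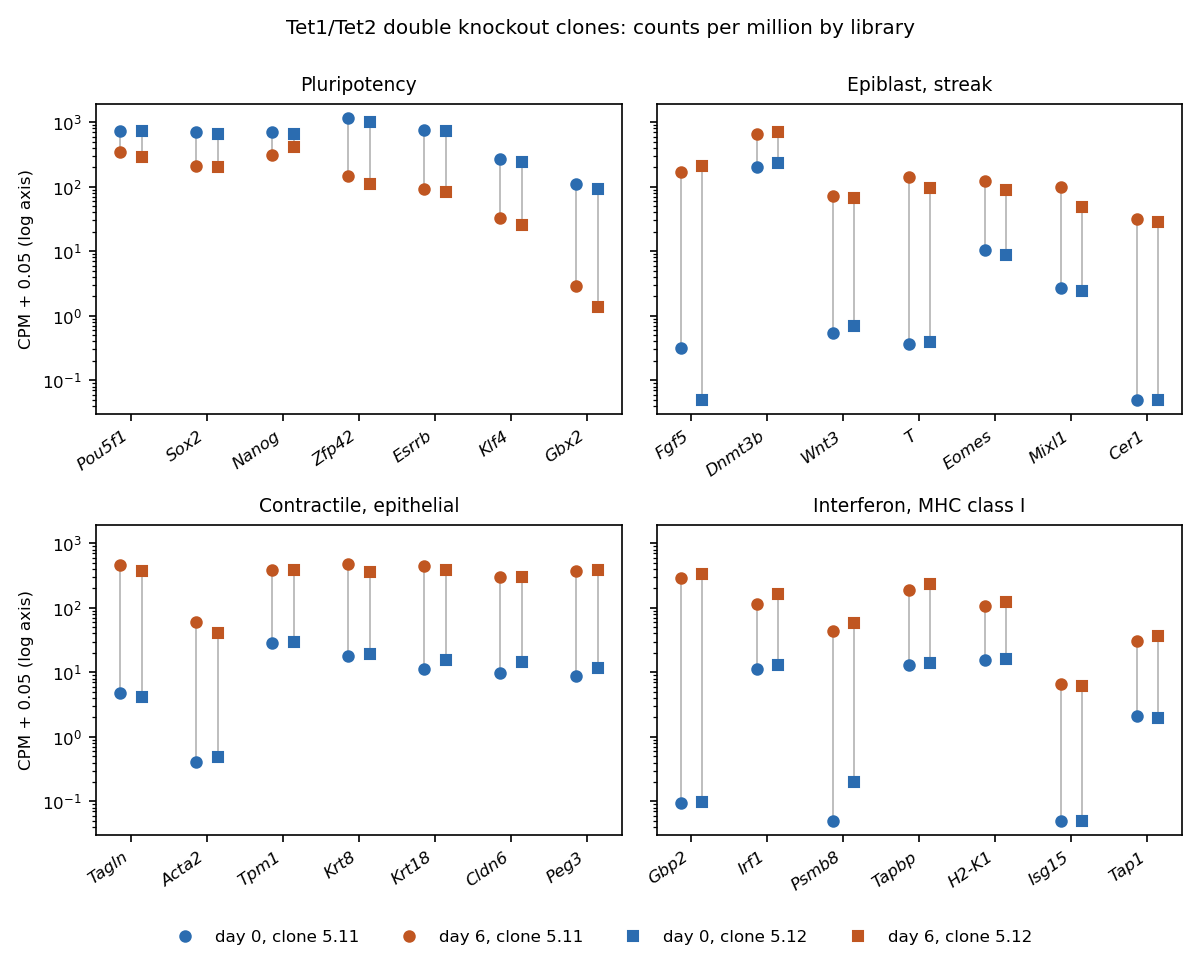
CPM plus 0.05 on a log axis of 28 genes in the 4 DKO libraries, with day 0 in blue and day 6 in orange, clone DKO_5.11 as circles and clone DKO_5.12 as squares, and a line joining the days of a clone. The clones of a day lie closer to each other than to the other day in each of these genes.

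Most naive pluripotency factors, which sustain ESC self-renewal, fell. Of 20 naive factors, 16 were lower and 1 higher, with a median log2 fold change of -2.84; leaving out either clone left 16 lower and 0 higher. Their summed level went from 6836 and 6499 CPM to 1648 and 1589.5 CPM. Zfp42 (Rex1), a marker of the naive state, fell from 1171 and 1005 CPM to 146 and 111 CPM (log2 fold change -3.09 ± 0.32 SE, adjusted p = 1.51e-05). Esrrb, an orphan nuclear receptor that sustains self-renewal, fell from 755 and 743 CPM to 92.8 and 83.8 CPM (log2 fold change -3.09 ± 0.33 SE, adjusted p = 2.06e-05). Gbx2, a homeobox target of STAT3, had the largest decrease of the list, from 109 and 91 CPM to 2.79 and 1.33 CPM (log2 fold change -5.66 ± 0.37 SE, adjusted p = 5.85e-07). In none of these genes did the days overlap, and the clones differed by far less than the days. Nr0b1 (Dax1), a corepressor, fell by 4.48 on the log2 scale, the cell adhesion gene Jam2 by 3.74, and the Krüppel-like factors Klf4 and Klf2 by 3.17 and 2.87. The STAT3 and Wnt effector Tfcp2l1 fell by 2.99 and Klf5 by 1.30. Dppa3 (Stella), a maternal factor, was the exception and rose from 1.02 and 2.9 CPM to 4.01 and 6.87 CPM (log2 fold change 1.56 ± 0.45 SE, adjusted p = 0.0112). Dppa5a, at 932 and 1016 CPM at day 0 and 521 and 589.6 CPM at day 6, and Dppa4 were not called. Without clone DKO_5.11, Dppa3 (adjusted p = 0.137) was no longer called. Without clone DKO_5.12, Dppa3 (adjusted p = 0.0526) was no longer called. Without the replicate block, Dppa3 (adjusted p = 0.177) was no longer called.

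Among 8 core factors 3 were lower and none was higher. Pou5f1, which encodes Oct4 and carries the eGFP cassette, fell from 738 and 719 CPM to 340.1 and 285 CPM (log2 fold change -1.23 ± 0.20 SE, adjusted p = 0.00030). Its partner Sox2 fell from 699 and 668 CPM to 212 and 204 CPM (log2 fold change -1.72 ± 0.30 SE, adjusted p = 0.000545). The chromatin-bound cofactor Utf1 fell from 601 and 619 CPM to 180.0 and 179 CPM (log2 fold change -1.77 ± 0.48 SE, adjusted p = 0.00841). Without clone DKO_5.11, Utf1 (adjusted p = 0.0718) was no longer called. Without clone DKO_5.12, Utf1 (adjusted p = 0.0852) was no longer called. Nanog had 699 and 648 CPM at day 0 and 314 and 414 CPM at day 6 (log2 fold change -0.90 ± 0.21 SE, adjusted p = 0.00377), a difference below the 2-fold limit, so it was not called. The RNA-binding protein Lin28a had 403 and 415 CPM at day 0 and 550.3 and 543 CPM at day 6, also within the limit (log2 fold change 0.42). Both clones thus kept reads of all these factors at day 6, and the days did not overlap in any of the 5 named here.

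In the pathway of the withdrawn factor, the largest fitted decrease was that of a negative feedback target of STAT3. Socs3, which STAT3 induces and which inhibits gp130 signalling, fell from 177 and 157 CPM to 19.9 and 22.9 CPM (log2 fold change -2.96 ± 0.29 SE, adjusted p = 1.02e-05). Stat3 itself fell from 104 and 111 CPM to 50.1 and 48.6 CPM (log2 fold change -1.12 ± 0.20 SE, adjusted p = 0.000698). The LIF receptor gene Lifr fell from 25.5 and 26.7 CPM to 8.51 and 7.08 CPM (log2 fold change -1.75 ± 0.25 SE, adjusted p = 0.000127). The Lif gene rose from 3.78 and 3.25 CPM to 11.7 and 12.3 CPM (log2 fold change 1.77 ± 0.23 SE, adjusted p = 7.35e-05). The kinase gene Jak2 rose from 7.73 and 7.14 CPM to 31.4 and 34.1 CPM (log2 fold change 2.14 ± 0.45 SE, adjusted p = 0.00177). In all, 2 of 13 genes were higher (2 to 4 with 1 clone left out) and 4 lower. The kinase gene Pim3 was the remaining decrease (log2 fold change -1.09, under 2-fold with library totals, as was Stat3, and without clone DKO_5.11), and Il6st, which encodes gp130, was not called at 75.5 and 83.8 CPM at day 0 and 102 and 111 CPM at day 6.

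Most formative and primed epiblast genes rose: 11 of 15 were higher (9 with either clone left out) and 2 lower, with a median log2 fold change of 2.17. Fgf5, the marker of the epiblast after implantation, had 6 reads in the day 0 libraries together (0.267 and 0 CPM) and rose to 167 and 209 CPM (log2 fold change 10.33 ± 0.61 SE, adjusted p = 2.68e-07). Pou3f1 (Oct6) rose from 6.4 and 4.53 CPM to 77.9 and 86.1 CPM (log2 fold change 3.91 ± 0.39 SE, adjusted p = 1.21e-05). Dnmt3b, a de novo DNA methyltransferase, rose from 201 and 236 CPM to 659.8 and 712 CPM (log2 fold change 1.66 ± 0.35 SE, adjusted p = 0.00187). For each of these, both clones were higher at day 6 than either clone at day 0. Otx2, an organiser of the primed enhancer programme, rose from 55.5 and 51.4 CPM to 113 and 208 CPM, where the clones differed at day 6 (log2 fold change 1.52). Without clone DKO_5.12, Otx2 (adjusted p = 0.111) was no longer called. Sox11, Zic2 and Lef1 rose by 3.40, 2.94 and 3.57 on the log2 scale, and the N-cadherin gene Cdh2 by 3.01. The 2 decreases were Foxd3, a forkhead factor of both states (from 68.7 and 61.8 CPM to 9.6 and 7.41 CPM), and Etv4, an ETS factor downstream of FGF signalling (from 188 and 184 CPM to 33 and 22.8 CPM).

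Most genes of the primitive streak and early mesoderm rose, many from under 1 CPM. Of 21 tested, 15 were higher and 1 lower; the median log2 fold change was 3.05, or 2.94 with Msgn1, which had no read at day 0, set at its bound. T (Brachyury), the defining transcription factor of the streak, rose from 0.311 and 0.345 CPM to 139 and 94.4 CPM (log2 fold change 8.46 ± 0.46 SE, adjusted p = 1.51e-07). Eomes, the T-box factor of streak and definitive endoderm, rose from 10.4 and 8.81 CPM to 123 and 90.4 CPM (log2 fold change 3.46 ± 0.33 SE, adjusted p = 8.14e-06). Mixl1, a homeobox gene of mesendoderm, rose from 2.67 and 2.41 CPM to 98 and 48.8 CPM (log2 fold change 4.79 ± 0.66 SE, adjusted p = 0.000103). For each of them clone DKO_5.11 was above clone DKO_5.12 at day 6, and both were far above day 0. Lhx1, of the organiser and axial mesendoderm, had 2 reads at day 0 and 57.4 and 28.9 CPM at day 6, a ratio of 895 (95% counting interval 248 to 7393). Goosecoid (Gsc) rose from 1.07 and 0.591 CPM to 14 and 13.5 CPM and Evx1 from 0.533 and 0.738 CPM to 16.1 and 10.9 CPM. Genes of more advanced mesoderm were also called higher: Mesp1 rose from 0.578 and 0.197 CPM to 4.9 and 1.6 CPM, Tbx6 from 0.133 and 0.0985 CPM to 0.559 and 1.14 CPM and Hand1 from 0.489 and 0.935 CPM to 12.2 and 8.6 CPM. Cdx1 was the only decrease (from 2.44 and 3.05 CPM to 0.854 and 0.489 CPM). Without clone DKO_5.11, Hand1 (adjusted p = 0.0609) was no longer called. Without clone DKO_5.12, Tbx6 (adjusted p = 0.0812) and Cdx1 (adjusted p = 0.0895) were no longer called.

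In the Wnt list 17 of 27 genes were higher and 4 lower, with a median log2 fold change of 1.59. Wnt3, which is needed to form the streak, rose from 0.489 and 0.64 CPM to 70.7 and 67.4 CPM (log2 fold change 6.93 ± 0.32 SE, adjusted p = 6.56e-08). Its ligand relatives Wnt8a, Wnt5a, Wnt5b, Wnt11 and Wnt6 were also higher, with day 6 values between 3.56 and 36.4 CPM. Of targets of the canonical pathway, Sp5 rose from 0.622 and 0.443 CPM to 67.4 and 43.5 CPM (log2 fold change 6.69 ± 0.44 SE), Axin2 from 9.55 and 9.94 CPM to 60.3 and 51.2 CPM (log2 fold change 2.51 ± 0.32 SE) and Nkd1 from 1.11 and 0.985 CPM to 6.9 and 5.78 CPM. The targets Notum, a Wnt deacylase, and Ccnd1, a cyclin gene, fell, Notum from 33 and 44.1 CPM to 3.52 and 3.58 CPM and Ccnd1 from 272 and 276 CPM to 104 and 84.4 CPM. Secreted modulators moved in both directions. The R-spondin gene Rspo3, an agonist, rose from 0.0889 and 0.0985 CPM to 11.3 and 8.39 CPM. Sfrp1, which binds Wnt ligands, fell from 212 and 178 CPM to 30.2 and 29.9 CPM. The inhibitor Dkk1 had 3 reads at day 0 and 12.6 and 8.77 CPM at day 6, a ratio of 149.6 (95% counting interval 51 to 727). The receptor genes Fzd2 and Fzd5 moved oppositely, Fzd2 from 4.98 and 4.48 CPM to 91 and 119 CPM and Fzd5 from 262 and 237 CPM to 43.8 and 44.9 CPM.

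In Nodal signalling, 6 of 17 genes were higher (4 to 6 with 1 clone left out) and 3 lower. Cer1, a secreted antagonist of Nodal and BMP made by anterior endoderm, had no read at day 0 and 31.8 and 28 CPM at day 6, at least 213-fold higher. The feedback inhibitors of Nodal rose, Lefty1 from 14.8 and 9.45 CPM to 44.3 and 34.5 CPM and Lefty2 from 66.5 and 70 CPM to 166 and 120.5 CPM. Without clone DKO_5.11, Lefty1 (adjusted p = 0.142) and Lefty2 (adjusted p = 0.246) were no longer called. Without clone DKO_5.12, Lefty1 (adjusted p = 0.209) and Lefty2 (adjusted p = 0.073) were no longer called. Nodal had 83.1 and 75 CPM at day 0 and 140.4 and 151 CPM at day 6, below the 2-fold limit, and its coreceptor Tdgf1 (Cripto) was not called either (765 and 684 CPM at day 0 and 519 and 519 CPM at day 6). The related ligand Gdf3 fell from 117 and 127 CPM to 44.7 and 39.4 CPM (log2 fold change -1.54 ± 0.32 SE, adjusted p = 0.00182). Of BMP genes, 8 of 21 were higher and 1 lower. Bmp4, the ligand made by ESCs, fell from 88 and 85 CPM to 12 and 8.66 CPM (log2 fold change -3.08 ± 0.60 SE, adjusted p = 0.00112). Bmp2 rose from 0.578 and 0.246 CPM to 10.2 and 7.82 CPM. The BMP-responsive homeobox gene Msx1 rose from 0.267 and 0.197 CPM to 26.9 and 12.5 CPM and Msx2 from 1.78 and 1.18 CPM to 11.2 and 7.71 CPM. Id2 rose from 8.31 and 5.56 CPM to 76.5 and 62.6 CPM (log2 fold change 3.34 ± 0.37 SE, adjusted p = 2.16e-05). Id1 and Id3, the BMP targets known from self-renewal, were not called, with Id1 at 79.9 and 45.6 CPM at day 0 and 73 and 57.1 CPM at day 6. In the FGF list 6 of 20 were higher and 4 lower. The naive ligand Fgf4 fell from 201 and 205 CPM to 42.3 and 45.3 CPM. Spry4, a feedback inhibitor, fell from 419.8 and 324 CPM to 41.7 and 20.3 CPM (log2 fold change -3.66 ± 0.27 SE, adjusted p = 1.45e-06). The streak ligand Fgf8 rose from 0.267 and 0.0492 CPM to 49.7 and 54.7 CPM (log2 fold change 8.28 ± 0.37 SE, adjusted p = 5.61e-08).

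**Figure D2:**
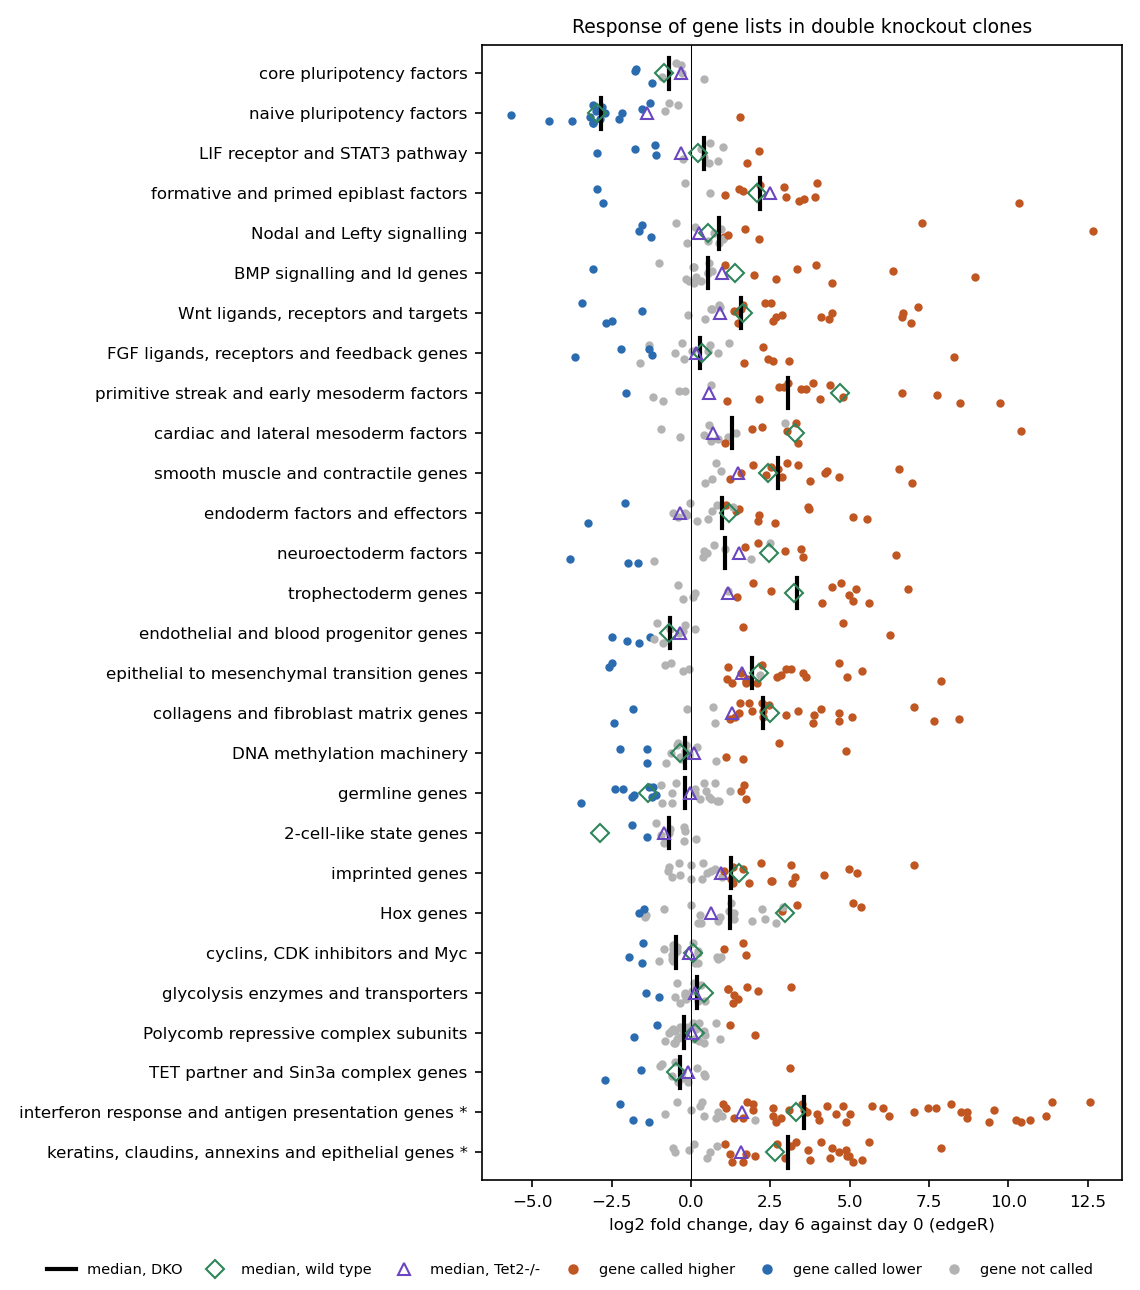
Log2 fold change of day 6 against day 0 in DKO for the tested genes of 28 gene lists, coloured by call, with the list median in DKO (black bar), WT (diamond) and Tet2-/- (triangle). Lists marked with an asterisk were chosen after their values were seen. Naive factors lie left of 0 with a DKO median of -2.84, and the streak, contractile, trophectoderm, interferon and epithelial lists lie right of it with medians from 2.75 to 3.57. For the streak list the WT median (4.71) is above that of DKO and that of Tet2-/- (0.57) below it.

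Most contractile and matrix genes rose. 15 of 19 smooth muscle and contractile genes were higher and none lower, and their summed level went from 1506 and 1480.5 CPM to 5259 and 5025 CPM. Tagln (SM22), an actin-binding protein, rose from 4.67 and 4.09 CPM to 461 and 366 CPM (log2 fold change 6.56 ± 0.26 SE, adjusted p = 2.48e-08). Acta2, smooth muscle actin, rose from 0.355 and 0.443 CPM to 60.7 and 41.3 CPM (log2 fold change 6.98 ± 0.54 SE, adjusted p = 2.03e-06). Tropomyosin 1 (Tpm1) rose from 28.3 and 29.4 CPM to 388 and 389.8 CPM (log2 fold change 3.75 ± 0.26 SE, adjusted p = 9.09e-07). Nonmuscle myosin heavy chain (Myh9) rose from 284 and 327 CPM to 1107 and 1283 CPM (log2 fold change 1.97 ± 0.15 SE, adjusted p = 1.84e-06). Cyr61 and Ctgf, matricellular proteins that YAP and SRF induce, rose from 15.9 and 11.1 CPM to 228 and 268 CPM and from 11 and 10.2 CPM to 91.4 and 135 CPM. Srf itself had 66.6 and 60.6 CPM at day 0 and 104 and 99.8 CPM at day 6 and was not called. Cardiac actin (Actc1) had no read at day 0 and 6.01 and 6.6 CPM at day 6, at least 44.9-fold higher, while the cardiac troponin gene Tnnt2 had 0 and 0.0492 CPM at day 0 and 0.361 and 0.0814 CPM at day 6.

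Of 27 collagen and fibroblast matrix genes 22 were higher and 2 lower, with a median log2 fold change of 2.27, or 2.26 with 3 genes that had no read at day 0 set at their bounds. Col1a1 rose from 2.04 and 1.53 CPM to 27.5 and 23.9 CPM (log2 fold change 3.85 ± 0.35 SE, adjusted p = 6.40e-06), and Serpinh1, the collagen chaperone, from 61.6 and 61.2 CPM to 227 and 213 CPM (log2 fold change 1.84 ± 0.28 SE, adjusted p = 0.000213). Lum, a proteoglycan of fibroblasts, reached 1.12 and 0.706 CPM from 0 reads. Thy1 and the protease inhibitor Timp1 fell from 27.9 and 28.5 CPM to 4.6 and 5.89 CPM and from 24.4 and 23.9 CPM to 8.15 and 5.65 CPM. Of 26 genes of the epithelial to mesenchymal transition 19 were higher and 2 lower, epithelial members included. The E-cadherin gene Cdh1 rose from 387 and 378 CPM to 1014 and 851 CPM (log2 fold change 1.28 ± 0.15 SE, adjusted p = 2.77e-05), as did N-cadherin. Of the transcription factors that repress E-cadherin, Snai1 rose from 4.22 and 4.18 CPM to 12.3 and 6.87 CPM and Zeb2 from 3.2 and 0.394 CPM to 11.2 and 10.8 CPM. Zeb1 fell from 23 and 19.2 CPM to 3.91 and 3.15 CPM (log2 fold change -2.58 ± 0.46 SE, adjusted p = 0.000632), and Snai2 was not called at 0.80 and 1.18 CPM at day 0 and 0.361 and 0.787 CPM at day 6. Without clone DKO_5.11, Snai1 (adjusted p = 0.34) was no longer called. Without clone DKO_5.12, Snai1 (adjusted p = 0.0585) was no longer called. Without the replicate block, Snai1 (adjusted p = 0.114) was no longer called. Vimentin (Vim) and fibronectin (Fn1) were not called, with Vim at 349 and 414 CPM at day 0 and 266 and 232 CPM at day 6.

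Epithelial genes were among the largest increases in CPM. This list was chosen after the values were seen, so its counts describe and do not test: 23 of 30 genes were higher, none was lower, and the median log2 fold change was 3.06. Krt8, of the keratin pair of simple epithelia, rose from 18.1 and 19.3 CPM to 473 and 353 CPM (log2 fold change 4.45 ± 0.33 SE, adjusted p = 1.37e-06). Its partner Krt18 rose from 11.2 and 15.4 CPM to 452 and 391 CPM (log2 fold change 4.99 ± 0.28 SE, adjusted p = 2.01e-07). Krt19 rose from 1.47 and 1.87 CPM to 89.7 and 74.7 CPM (log2 fold change 5.62 ± 0.57 SE, adjusted p = 1.33e-05). The tight junction genes Cldn6 and Cldn7 rose from 9.6 and 14.4 CPM to 296 and 298 CPM and from 1.56 and 2.17 CPM to 73.4 and 82.8 CPM, and the desmosomal gene Dsp from 15.6 and 17.5 CPM to 319.9 and 255 CPM. Podxl, a sialomucin of apical membranes, rose from 30.7 and 35.3 CPM to 392 and 489.8 CPM (log2 fold change 3.74 ± 0.30 SE, adjusted p = 2.46e-06), and annexin A3 (Anxa3) from 3.69 and 2.9 CPM to 107 and 89.2 CPM. Reads of keratin genes, which have many similar copies, could be split differently by another counting rule. Keratins are also trophectoderm genes, and of 16 genes of that list 11 were higher (7 to 9 with 1 clone left out; median log2 fold change 3.33, or 1.93 with Elf5 and Plac1 at their bounds). Among its defining members, Cdx2 rose from 0.311 and 0.295 CPM to 8.02 and 3.18 CPM and Gata3 from 0.355 and 0.295 CPM to 8.77 and 8.88 CPM. Elf5 went from no read to 0.164 and 0.163 CPM, and the giant cell gene Prl3d1 was at 0 in all 4 libraries. Tfap2c was not called at 43.7 and 49.2 CPM at day 0 and 39.3 and 38.2 CPM at day 6.

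Of lists of other lineages, endoderm, neuroectoderm and blood lists held genes called in both directions, and the cardiac list held increases alone. Of 22 endoderm genes 10 were higher (6 to 8 with 1 clone left out) and 2 lower. Foxa2, a factor of definitive endoderm and node, rose from 0.133 and 0.345 CPM to 12 and 10.3 CPM (log2 fold change 5.55 ± 0.73 SE, adjusted p = 7.71e-05). Sox17, of definitive endoderm, rose from 0.355 and 0.345 CPM to 15 and 9.55 CPM (log2 fold change 5.1 ± 0.77 SE, adjusted p = 0.000196). Gata6 rose from 0.622 and 0.886 CPM to 12.4 and 7.79 CPM and Gata4 from 2.09 and 2.31 CPM to 17.7 and 10.5 CPM. Sox7, of primitive endoderm, fell from 2.31 and 1.33 CPM to 0.427 and 0.407 CPM, and the basement membrane gene Lama1 from 91.6 and 101 CPM to 11.4 and 8.85 CPM. The visceral endoderm products Afp and Ttr stayed at 0 to 0.0543 CPM. Of 17 neuroectoderm genes 6 were higher (3 to 5 with 1 clone left out) and 3 lower (1 to 3). Sox1, its early defining factor, fell from 5.87 and 2.81 CPM to 2.17 and 0.407 CPM (log2 fold change -1.97 ± 0.44 SE, adjusted p = 0.00264), and Pax6 was not called at 0.40 and 0.295 CPM at day 0 and 0.723 and 0.76 CPM at day 6. Nestin (Nes), which mesenchymal cells also express, rose from 14.2 and 15.2 CPM to 128 and 103 CPM (log2 fold change 2.96 ± 0.34 SE, adjusted p = 2.98e-05). Tubb3, a neuronal tubulin that these ESCs expressed at day 0, fell from 204 and 194 CPM to 16.9 and 11.8 CPM (log2 fold change -3.81 ± 0.52 SE, adjusted p = 0.000106). Endothelial and blood genes were 3 higher (1 with either clone left out) and 4 lower (2 to 4) of 15. The VEGF receptor gene Flt1 rose from 1.16 and 1.23 CPM to 35.2 and 31.4 CPM, and the adhesion gene Pecam1, which ESCs also express, fell from 53.6 and 73.8 CPM to 19.3 and 21.4 CPM. Embryonic globins were at or near 0. Cardiac and lateral mesoderm factors were higher in 7 of 16 (2 to 4 with 1 clone left out), such as Hand2, a factor of heart and limb, which rose from 0.0444 and 0.0492 CPM to 0.756 and 0.299 CPM. Without clone DKO_5.11, Gata6 (adjusted p = 0.0553) and Hand2 (adjusted p = 0.148) were no longer called. Without clone DKO_5.12, Sox1 (adjusted p = 0.067) and Pecam1 (adjusted p = 0.0582) were no longer called. Without the replicate block, Hand2 (adjusted p = 0.0869) was no longer called. In bulk RNA, fewer cells of a type and less RNA per cell cannot be told apart, which holds for all levels given here.

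Most of a list of genes that interferons induce or that load peptides onto MHC class I rose. The list was chosen after the values were seen and is given as a description: of 53 tested genes 40 were higher and 3 lower, and the median log2 fold change was 3.57, or 3.26 with 8 genes that had no read at day 0 set at their bounds. Leaving out either clone left 38 higher. Their summed level went from 507 and 520.0 CPM to 1971 and 2319 CPM. Ifnb1 had no read in any of the 4 libraries and Ifng had 1 read in all.

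Gbp2, a guanylate-binding GTPase that restricts intracellular pathogens, had 1 read in each day 0 library and 292 and 335 CPM at day 6, a ratio of 6752 (95% counting interval 1869 to 55755). Its close copy Gbp2b had 3 reads at day 0 and 291 and 355 CPM at day 6, and reads of the pair may have been divided between them. The transcription factor Irf1 rose from 11 and 13.1 CPM to 115 and 163 CPM (log2 fold change 3.51 ± 0.17 SE, adjusted p = 7.59e-08), and Irf2 from 1 read to 9.83 and 10.4 CPM. Irf9 and Irf7 were not called, with Irf9 at 13 and 14.4 CPM at day 0 and 7.92 and 7.68 CPM at day 6. Of the immunoproteasome, Psmb8 had 3 reads at day 0 and 43.4 and 57.4 CPM at day 6, and the activator subunit Psme2 rose from 15.2 and 18.1 CPM to 133 and 151 CPM (log2 fold change 3.09 ± 0.16 SE, adjusted p = 1.12e-07). Tapasin (Tapbp) rose from 12.8 and 13.8 CPM to 191 and 230.1 CPM (log2 fold change 3.98 ± 0.19 SE, adjusted p = 7.59e-08), and the peptide transporter gene Tap1 from 2.09 and 1.92 CPM to 30 and 35.9 CPM. The class I heavy chain H2-K1 rose from 15.5 and 16 CPM to 105 and 121 CPM (log2 fold change 2.84 ± 0.12 SE, adjusted p = 3.96e-08). The light chain B2m rose from 20.3 and 15.2 CPM to 70.7 and 65 CPM (log2 fold change 1.95 ± 0.21 SE, adjusted p = 2.19e-05). The chemokines Cxcl10 and Cxcl11 and the ubiquitin-like Isg15 had no read at day 0; they reached 7.66 and 14.1 CPM, 8.22 and 16.9 CPM and 6.47 and 6.11 CPM, at least 77.4-fold, at least 89.2-fold and at least 44.8-fold higher. Classical members were not all induced: Mx1 had no read at day 0 and 0.0329 and 0.0543 CPM at day 6, and Ifit2 was not called at 5.1 and 3.89 CPM at day 0 and 5.88 and 5.46 CPM at day 6. Oas1a, an RNA-activated synthetase, fell from 16.3 and 21.1 CPM to 4.83 and 5.59 CPM, and the RNA sensor Ddx58 (RIG-I) fell from 107 and 117 CPM to 45.5 and 44.9 CPM. H2 and guanylate-binding genes form families whose members share sequence, so single values are uncertain.

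Promoter sequence was read for these genes from RefSeq (GRCm38.p6, another build than the mm9 of the counts), as the 250 bases before the start, to show the letters known to be bound by interferon-activated factors. The interferon-stimulated response element (ISRE), searched on both strands as GAAA and GAAA with any 2 bases between, occurred in 17 of 32 list genes called higher that matched a promoter (53.1%; 40 genes were called), beside 3.04% of all 27025 promoters. The gamma-activated site (GAS), searched as TTCNNNGAA, occurred in 9 (28.1%) beside 7.18%. Among all tested genes that matched a promoter, 2.46% had an ISRE and 5.87% a GAS. Among all genes called higher that matched a promoter, these shares were 3.29% and 5.33%. Because the list was assembled from known interferon targets, this describes the list; no binding was measured. Shown are 5 promoters with their matches in capitals, each 5' to 3' in the direction of the gene. The promoter of Tap1, searched in the same way, held neither site and is not shown. Gbp2 has an ISRE 59 to 50 bases before the start (on the minus strand), Cxcl10 at 213 to 204, Isg15 has 3 that overlap between 78 and 57, and Psmb8 and Irf1 have a GAS at 97 to 89 and 90 to 82.
Gbp2, chr3:142620413-142620662, plus strand: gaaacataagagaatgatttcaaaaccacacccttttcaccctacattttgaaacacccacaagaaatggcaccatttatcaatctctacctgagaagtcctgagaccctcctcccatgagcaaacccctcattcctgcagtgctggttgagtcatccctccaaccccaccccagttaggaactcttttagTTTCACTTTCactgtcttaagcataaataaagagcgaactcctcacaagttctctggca
Cxcl10, chr5:92348890-92349139, minus strand: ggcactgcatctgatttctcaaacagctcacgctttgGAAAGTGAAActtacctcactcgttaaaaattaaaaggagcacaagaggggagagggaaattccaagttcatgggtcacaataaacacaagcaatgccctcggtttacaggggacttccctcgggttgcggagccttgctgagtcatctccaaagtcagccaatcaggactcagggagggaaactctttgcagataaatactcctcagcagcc
Isg15, chr4:156200819-156201068, minus strand: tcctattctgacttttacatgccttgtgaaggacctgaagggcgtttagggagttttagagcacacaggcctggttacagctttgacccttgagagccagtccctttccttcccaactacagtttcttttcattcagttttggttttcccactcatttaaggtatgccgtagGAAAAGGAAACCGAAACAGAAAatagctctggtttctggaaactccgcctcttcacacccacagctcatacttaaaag
Psmb8, chr17:34197945-34198194, plus strand: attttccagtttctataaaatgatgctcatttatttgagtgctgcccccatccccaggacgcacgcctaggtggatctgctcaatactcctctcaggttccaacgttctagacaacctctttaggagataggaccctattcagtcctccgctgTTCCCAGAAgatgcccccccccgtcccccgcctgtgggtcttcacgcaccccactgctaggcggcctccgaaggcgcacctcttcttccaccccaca
Irf1, chr11:53769764-53770013, plus strand: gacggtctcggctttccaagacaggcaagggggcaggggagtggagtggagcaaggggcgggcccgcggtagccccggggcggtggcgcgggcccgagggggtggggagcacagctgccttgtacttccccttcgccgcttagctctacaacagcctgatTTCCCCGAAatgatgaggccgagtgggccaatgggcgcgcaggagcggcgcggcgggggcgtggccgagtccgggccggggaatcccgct

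Of 29 imprinted genes, which are expressed from 1 parental allele under control of DNA methylation, 16 were higher and none lower. Peg3, a zinc finger gene of the paternal allele, rose from 8.84 and 11.4 CPM to 368 and 388 CPM (log2 fold change 5.23 ± 0.48 SE, adjusted p = 6.91e-06). Igf2, a growth factor, rose from 5.64 and 3.74 CPM to 168 and 124 CPM (log2 fold change 4.97 ± 0.52 SE, adjusted p = 1.51e-05), and its neighbour H19 rose from 3.02 and 2.66 CPM to 16.4 and 40.2 CPM, with clone DKO_5.12 well above clone DKO_5.11. Peg10, a placental gene derived from a retrotransposon, rose from 215 and 204 CPM to 1174 and 1242 CPM (log2 fold change 2.53 ± 0.43 SE, adjusted p = 0.000462). Snrpn, Kcnq1ot1 and Mest were not called, with Snrpn at 174 and 183 CPM at day 0 and 301 and 250.4 CPM at day 6. In the DNA methylation machinery 4 of 19 genes were higher and 3 lower. Dnmt1 and Dnmt3a were not called, with Dnmt1 at 303 and 302 CPM at day 0 and 238 and 219.8 CPM at day 6. Dnmt3l, the cofactor of the de novo enzymes, had 208 and 209.8 CPM at day 0 and 207 and 171 CPM at day 6 (log2 fold change -0.15 ± 0.17 SE, adjusted p = 0.467). Gadd45g and Gadd45b, linked to demethylation and stress, rose from 0.267 and 0.345 CPM to 10.5 and 7.68 CPM and from 5.15 and 7.29 CPM to 38 and 47.3 CPM.

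Germline genes, many of which are silenced by promoter methylation, were 3 higher and 9 lower (5 to 6 with 1 clone left out) of 28, with a median log2 fold change of -0.18. Sycp3, of the synaptonemal complex, rose from 5.78 and 6.01 CPM to 14.5 and 26.5 CPM (log2 fold change 1.73 ± 0.24 SE, adjusted p = 0.000117). Tdrd1, of the piRNA pathway, rose from 4.89 and 5.02 CPM to 15.3 and 15.9 CPM (log2 fold change 1.66 ± 0.26 SE, adjusted p = 0.000285). Rpl10l, a testis ribosomal protein gene, fell from 187 and 167 CPM to 18.2 and 14 CPM (log2 fold change -3.47 ± 0.46 SE, adjusted p = 8.15e-05). Dazl and Ddx4 (Vasa), RNA-binding proteins of germ cells, were not called, with Ddx4 at 51.1 and 42.5 CPM at day 0 and 57.3 and 44.4 CPM at day 6. Of 11 genes of the 2-cell-like state 2 were lower (0 to 1 with 1 clone left out), and Zscan4c had 2.53 and 1.03 CPM at day 0 and 1.22 and 0.923 CPM at day 6; the Zscan4 genes are near-identical copies, so their reads are uncertain. Hox genes were near the limit of detection, with 4 of 24 higher (1 to 2 with 1 clone left out) and 2 lower (median log2 fold change 1.23, or 0.62 with genes without a read at day 0 at their bounds). Their summed level was 13.7 and 9.06 CPM at day 0 and 11.8 and 7.41 CPM at day 6. Hoxb1 rose from 0.133 and 0.0492 CPM to 0.854 and 0.543 CPM. Without the replicate block, Hoxb1 (adjusted p = 0.113) was no longer called.

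In lists of metabolism, cell cycle and chromatin most genes were not called, as was true of all tested genes, of which 29.5% were called. Called higher were 36.4% of glycolysis, 11.5% of cell cycle, 7.14% of Polycomb and 7.14% of TET partner genes, beside 18.7% of all genes. Called lower were 9.09%, 11.5%, 7.14% and 14.3%, beside 10.8%. Of 22 glycolysis genes 8 were higher (4 to 7 with 1 clone left out) and 2 lower (1 with 1 clone left out). The glucose transporter Slc2a1 rose from 347 and 333 CPM to 752 and 982 CPM and Slc2a3 from 1038 and 1049 CPM to 2167 and 2487 CPM. The lactate exporter Slc16a3 rose from 34.5 and 35.6 CPM to 259.6 and 378 CPM (log2 fold change 3.16 ± 0.41 SE, adjusted p = 6.66e-05). Gapdh, a central enzyme, was not called at 909 and 908 CPM at day 0 and 684 and 741 CPM at day 6. Of 26 cell cycle genes 3 were higher and 3 lower. The cyclin gene Ccnd3 fell from 431 and 411 CPM to 114 and 103 CPM (log2 fold change -1.95 ± 0.11 SE, adjusted p = 1.85e-07). The CDK inhibitor gene Cdkn1a (p21) rose from 34.2 and 27.1 CPM to 62.9 and 62.8 CPM (log2 fold change 1.05 ± 0.17 SE, adjusted p = 0.000332), by less than 2-fold without clone DKO_5.12. Polycomb subunits were 2 higher and 2 lower of 28. Eed, of PRC2, fell from 485 and 471 CPM to 147 and 130.1 CPM (log2 fold change -1.79 ± 0.11 SE, adjusted p = 4.79e-07). The catalytic subunit gene Ezh2 was not called at 221 and 218 CPM at day 0 and 145 and 154 CPM at day 6. Genes of TET partner proteins and the Sin3a complex were 1 higher and 2 lower of 14, with Sin3a at 199 and 216 CPM at day 0 and 189.9 and 202 CPM at day 6.

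Outside the lists, Inhbb, an activin subunit, had the largest fitted decrease of all genes and fell from 149.8 and 145 CPM to 0.657 and 0.461 CPM (log2 fold change -8.05 ± 0.32 SE, adjusted p = 2.48e-08). Myo1f (an unconventional myosin), Hal (histidine ammonia-lyase) and Msc (a bHLH factor) fell from 15.9 and 14.5 CPM to 0.131 and 0.163 CPM, from 17.2 and 12 CPM to 0.263 and 0.163 CPM and from 68.3 and 65.3 CPM to 2.89 and 1.95 CPM. Trim28 (KAP1), the corepressor that silences retrotransposons, was among the largest decreases in CPM and fell from 2799 and 2914 CPM to 1141 and 1055 CPM (log2 fold change -1.38 ± 0.15 SE, adjusted p = 2.48e-05). Tdh, the threonine dehydrogenase typical of mouse ESCs, fell from 863 and 871 CPM to 109.7 and 82.2 CPM (log2 fold change -3.19 ± 0.29 SE, adjusted p = 5.34e-06). For these genes as well the days did not overlap in any library. Rn45s, ribosomal RNA left after poly(A) selection, was at 7543 and 3852 CPM at day 0 and 2599 and 2681 CPM at day 6 (log2 fold change -1.03 ± 0.41 SE, adjusted p = 0.0468); it lost its call under most alternatives, and without it 4614 genes were again called. Among increases, Igfbp3, which binds insulin-like growth factors, rose from 19.4 and 17.8 CPM to 642 and 896 CPM (log2 fold change 5.35 ± 0.36 SE, adjusted p = 7.63e-07). Car2, a carbonic anhydrase, rose from 155 and 87.5 CPM to 774 and 744 CPM (log2 fold change 2.70 ± 0.46 SE, adjusted p = 0.000465). Clic5 had no read at day 0 and 11.9 and 20.7 CPM at day 6, at least 116-fold higher, and the apelin receptor gene Aplnr went from 2 reads to 16.8 and 11.9 CPM.

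**Figure D3:**
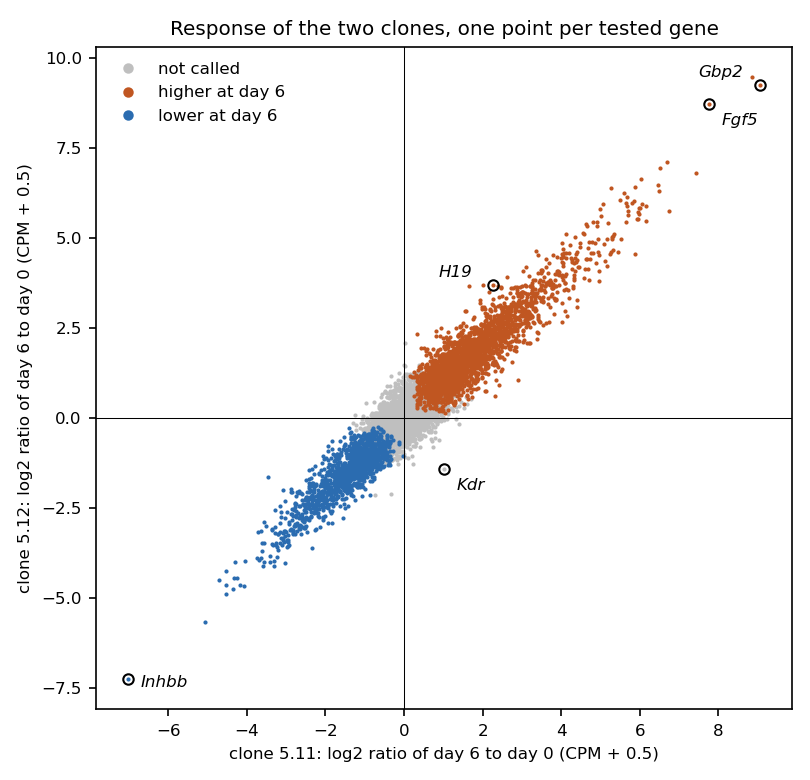
Log2 ratio of day 6 to day 0 (CPM plus 0.5) of each of 15639 tested genes in clone DKO_5.11 (x axis) and clone DKO_5.12 (y axis), coloured by call. Points lie along the diagonal (Pearson's r = 0.956), and Kdr is the gene over 2-fold in opposite directions.

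The responses of the clones were close to each other. All 4614 called genes moved in the same direction in both clones, and 2095 of the higher (71.5%) and 1083 of the lower (64.3%) did so by more than 2-fold in each; the call itself favours such genes. Across the 15639 genes, which are not independent, the clones' log2 ratios had r = 0.956 and rho = 0.935, and a median absolute gap of 0.177. 3656 genes moved more than 2-fold in clone DKO_5.11 and 4172 in clone DKO_5.12, of which 3182 moved alike in both, 87% and 76.3% of each set. Kdr, the VEGF receptor of mesoderm and endothelium, was the 1 gene beyond 2-fold in opposite directions, going from 6.31 and 10.2 CPM to 13.3 and 3.53 CPM. The clones also differed at day 0 in Y-linked genes, whose summed level was 14.7 and 47.9 CPM at day 0 and 47.7 and 90.8 CPM at day 6, and in Zeb2, with 3.2 and 0.394 CPM.

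The response of DKO was then set beside those of the other genotypes, to see which changes differ between genotypes. The numbers called by the same rule were 4614 in DKO, 5337 in WT, 4220 in Tet1-/-, 3033 in Tet2-/- and 3968 in TKO, with unequal numbers of clones behind them. Over the 13493 genes with at least 1 CPM on either day in DKO, the log2 fold changes of DKO had r = 0.937 with WT, 0.956 with Tet1-/-, 0.824 with Tet2-/- and 0.913 with TKO; these responses share no library, but share the division of days into 2 tables. The genes called higher in DKO had a median log2 fold change of 1.99 in WT, 1.82 in Tet1-/- and 1.33 in Tet2-/-, and those called lower -1.62, -1.46 and -0.92. Since these genes were chosen in DKO, medians elsewhere can be smaller by that choice alone.

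**Figure D4:**
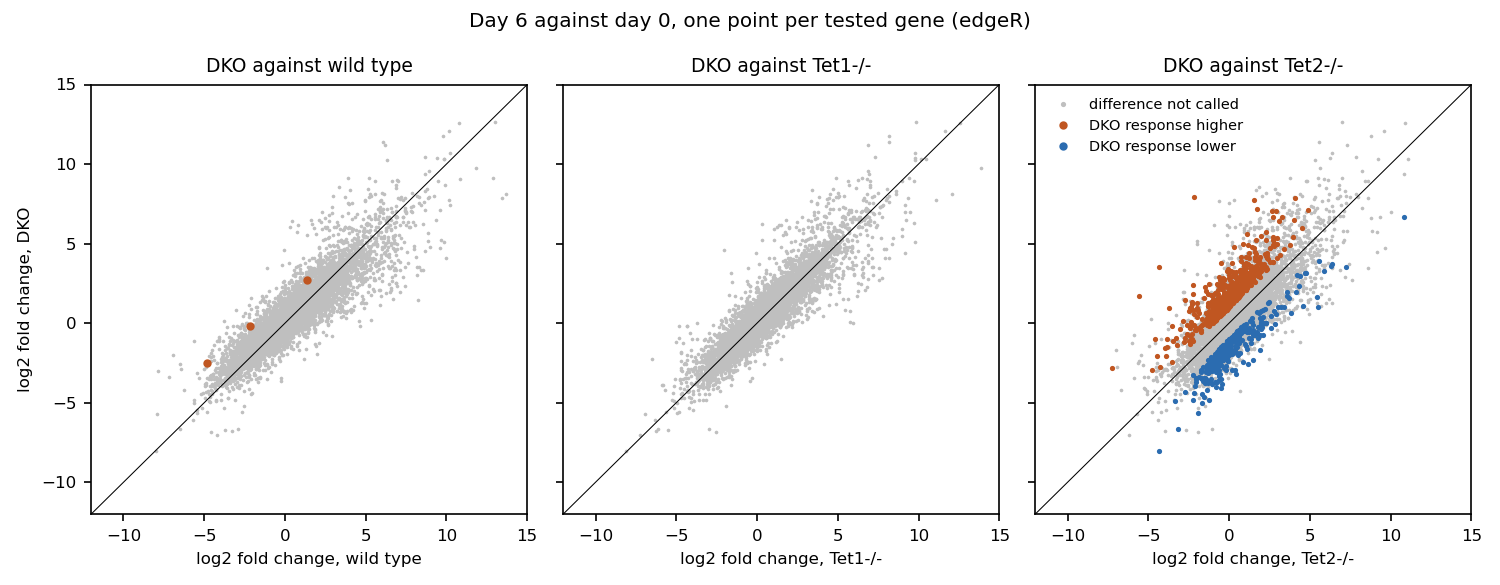
Log2 fold change of day 6 against day 0 in DKO (y axis) against that in WT, Tet1-/- and Tet2-/- (x axes), 1 point per tested gene, with the line of equal response. Genes whose difference of responses was called are coloured: 3 against WT, none against Tet1-/- and 958 against Tet2-/-.

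The difference between the responses of DKO and WT was called for 3 genes (0.0192% of those tested), and for 679 at an unadjusted p-value under 0.05 and over 2-fold. Dnmt3l was at 208 and 209.8 CPM at day 0 and 207 and 171 CPM at day 6 in DKO, whereas WT went from 263, 250.2 and 249 CPM to 46.4, 58 and 63 CPM (difference 2.05 ± 0.22 SE, adjusted p = 0.0172). All WT clones at day 6 were below both DKO clones at day 6. Its log2 fold change was -1.16 in Tet1-/-, -0.80 in Tet2-/- and 0.39 in TKO. D1Pas1, a testis-specific relative of the RNA helicase gene Ddx3x, went from 70.7 and 56.3 CPM to 11.8 and 10.3 CPM in DKO and from 61.1, 65.7 and 72.7 CPM to 2.52, 1.56 and 3.05 CPM in WT (difference 2.32 ± 0.31 SE, adjusted p = 0.0466). The tight junction gene Cldn4 went from 22.7 and 24.3 CPM to 162 and 147 CPM in DKO and from 43.1, 35.7 and 45.1 CPM to 126, 86 and 107 CPM in WT (difference 1.36 ± 0.18 SE, adjusted p = 0.0466). These calls depended on the clones used. None remained without WT clone O4.1 or O4.13, while all 3 remained, among 147 or 148 genes called, without WT clone O4.2. The 3 calls were not kept without either DKO clone. The fitted differences were then 1.90 to 2.19 for Dnmt3l, 2.26 to 2.39 for D1Pas1 and 1.24 to 1.48 for Cldn4. All 3 lost the call without the replicate block (adjusted p = 0.372 for Dnmt3l, 0.439 for D1Pas1 and 0.439 for Cldn4), and D1Pas1 and Cldn4 also where at least 1 CPM in 2 libraries was required (adjusted p = 0.0554 and 0.0554). DESeq2 called 116 and a fit of only the compared libraries 8.

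In 6 lists the medians of DKO and WT differed by more than 1 on the log2 scale although none of their genes had a called difference; these were picked out after the values were seen. The germline list had a median log2 fold change of -0.18 in DKO and -1.37 in WT, and the 2-cell-like list -0.71 and -2.86. Mesoderm lists were higher in WT: streak and early mesoderm 3.05 and 4.71, and cardiac and lateral mesoderm 1.30 and 3.28. The medians of Hox genes were 1.23 and 2.98, and those of neuroectoderm factors 1.08 and 2.45. These medians include fitted values of genes without a read at day 0 and were not tested as a group. Against Tet1-/- no gene was called (268 at an unadjusted p-value under 0.05 and over 2-fold, 2 by DESeq2, and 9 in a fit of only the compared libraries), with a smallest adjusted p of 0.66; a p-value that misses the threshold does not show that the responses were equal.

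The responses of DKO and Tet2-/- differed for 958 genes (6.13%), 628 higher (4.02%) and 330 lower (2.11%) in DKO, and the count fell to between 65 and 116 when any library of either genotype was left out. The genes with a higher response in DKO had a median log2 fold change of 1.77 in DKO and 0.05 in Tet2-/-, and values of 1.48 in WT, 1.24 in Tet1-/- and 1.21 in TKO. Those with a lower response had medians of -1.45 in DKO and 0.05 in Tet2-/-, and of -1.34, -0.97 and -0.99 in WT, Tet1-/- and TKO. The responses of WT, Tet1-/- and TKO are no part of this contrast, but their libraries entered the filter and the estimate of spread behind the calls.

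Epithelial and cytoskeletal genes were among those that rose more in DKO. Krt8, called in DKO, went from 12.7 and 18.3 CPM to 47.9 and 44.8 CPM in Tet2-/- (difference 2.85 ± 0.42 SE, adjusted p = 0.00452). Krt18 went from 6.53 and 6.57 CPM to 52 and 49.2 CPM (difference 2.05 ± 0.36 SE, adjusted p = 0.00907), and Cldn4 from 74.4 and 64.7 CPM to 42.9 and 52.6 CPM (difference 3.26 ± 0.20 SE, adjusted p = 3.58e-05). Myh9 and Tpm1 went from 493 and 464 CPM to 574 and 614 CPM and from 34.4 and 32.3 CPM to 128 and 125 CPM in Tet2-/- (differences 1.65 and 1.83). The imprinted gene Peg3 went from 29.1 and 25.8 CPM to 100.04 and 78.8 CPM (difference 3.53 ± 0.60 SE, adjusted p = 0.0075), and the streak gene Mixl1 from 1.45 and 2.25 CPM to 6.48 and 3.87 CPM (difference 3.37 ± 0.94 SE, adjusted p = 0.0418). Of antigen presentation genes, Tapbp went from 21.2 and 17.5 CPM to 67.8 and 51.1 CPM (difference 2.37 ± 0.25 SE, adjusted p = 0.000907) and H2-K1 from 20.3 and 16.3 CPM to 52.1 and 45.2 CPM (difference 1.43 ± 0.16 SE, adjusted p = 0.00129). By list, the response was higher in DKO than in Tet2-/- for 10 of 30 epithelial genes, 11 of 53 interferon and antigen presentation genes, 7 of 19 contractile genes and 4 of 21 streak genes, beside the 4.02% of all genes. The DKO libraries enter both tests, so a list of genes that rose in DKO is favoured, the epithelial and interferon lists, chosen for that rise, most of all: of all genes called higher in DKO 15.6% had a higher response. Of the genes named here, Cldn4, Myh9, Tapbp and H2-K1 kept their call whichever library was left out, and Krt8, Krt18, Tpm1, Peg3 and Mixl1 lost it in some or all of these fits (adjusted p up to 0.261).

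Of 20 naive factors, 6 had a lower response in DKO than in Tet2-/-, beside 2.11% of all genes and 12.3% of all genes called lower in DKO, as 16 of these factors were. Nr0b1 went from 154 and 164 CPM to 48.4 and 51.2 CPM in Tet2-/- (difference -2.81 ± 0.66 SE, adjusted p = 0.025) and Zfp42 from 493 and 468 CPM to 178 and 178 CPM (difference -1.65 ± 0.42 SE, adjusted p = 0.0316). For Zfp42 both the day 0 and the day 6 values set the genotypes apart, since DKO began at 1171 and 1005 CPM. The FGF feedback gene Spry4 went from 354 and 352 CPM to 154 and 163 CPM (difference -2.51 ± 0.35 SE, adjusted p = 0.00354). Differences in the other direction existed within lists. Socs3 fell less in DKO, going from 192 and 168 CPM to 6.57 and 6.45 CPM in Tet2-/- (difference 1.82 ± 0.40 SE, adjusted p = 0.0196). The splicing regulator Esrp1 went from 11.3 and 18.6 CPM to 125 and 134 CPM in DKO and from 5.55 and 2.6 CPM to 111 and 101 CPM in Tet2-/- (difference -1.62 ± 0.32 SE, adjusted p = 0.0133). Its negative difference lies in the day 0 values, which were higher in DKO, as were those at day 6. Nr0b1, Zfp42 and Socs3 lost this call whichever library was left out (adjusted p 0.12 to 0.168 for Nr0b1, 0.131 to 0.186 for Zfp42 and 0.0875 to 0.16 for Socs3), Zfp42 also without the replicate block (adjusted p = 0.0889), and Spry4 and Esrp1 in some of these fits (adjusted p up to 0.0566 and 0.137). Of 15 formative and primed factors, 0 had a higher and 1 a lower response, near the 4.02% and 2.11% of all genes.

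**Figure D5:**
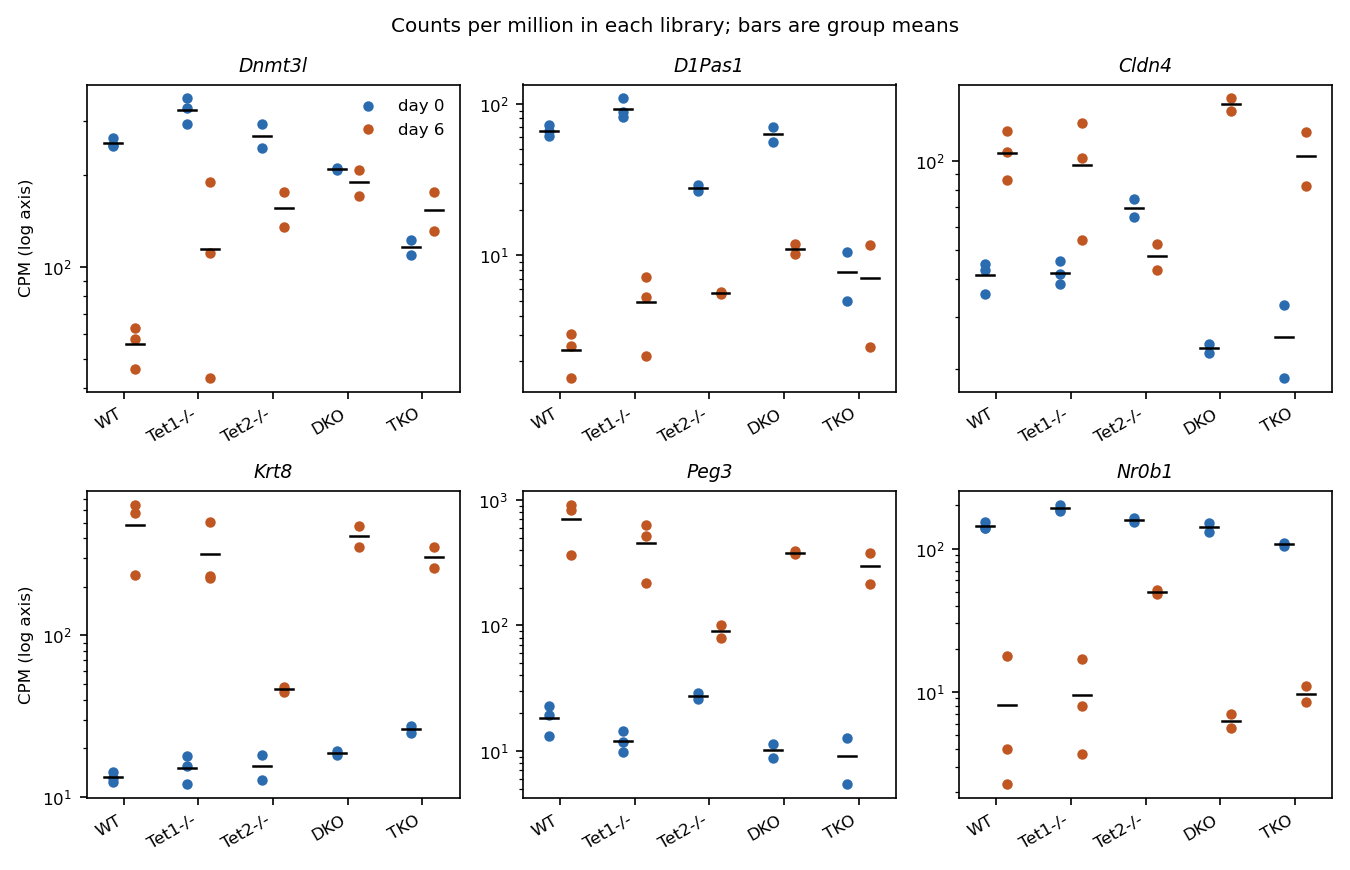
CPM on a log axis of 6 genes in every library of 5 genotypes, day 0 in blue and day 6 in orange, with bars for group means. The 2 DKO libraries of Dnmt3l at day 6 lie at 207 and 171 CPM and the WT libraries at 46.4 to 63.0 CPM, and at day 6 the Tet2-/- libraries are the lowest for Krt8 and Peg3 and the highest for Nr0b1.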

How the data were processed

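RNA was extracted by the authors with Trizol and RNeasy columns, ERCC spike-ins were added, poly(A) RNA was made into libraries with a kit that does not mark strand, and paired reads were aligned to mm9 with STAR 2.5.1 (submitters' processing notes). The deposited values are raw counts per gene line, in a table for each day; the tables are named for featureCounts, whose settings, strand and shared reads included, are not given in the sources used here. Each table has 31928 lines for 22926 symbols, and the first line of each of the 4911 symbols with more than 1 line was used. 0 ERCC lines were found, so spike-in scaling was not used here.

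Counts of all 24 libraries were fitted in edgeR 4.0.16 (R 4.3.3, limma 3.58.1; quasi-likelihood, TMM) with a coefficient per clone and a day coefficient per genotype, after filterByExpr with a minimum count of 10. Clones were paired by their description label, which writes clone DKO_5.12 as DKO_512 at day 6; title replicate numbers cross the clones. A gene counted as called over 2-fold with a p-value under 0.05 after Benjamini-Hochberg adjustment. The Tet1-/- clones sequenced on 1 day only add nothing to the contrast. CPM used TMM-scaled library sizes, with totals of 18400463 to 37290208 counts over the 24 libraries. SE was derived from the F statistic of each gene.

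Genes named were those of the lists, the 25 largest fold changes and 15 largest CPM changes per direction, the 10 largest differences per direction from another genotype, and the 10 largest gaps between clones, with at least 5 CPM required for the fold changes, differences and gaps. The members and lists were chosen with earlier results of these data known, and the interferon and epithelial lists after their values were seen here. On simulated counts, 200 of 15639 genes were changed by 2 on the log2 scale. Of these, 94% were called for DKO with 6 false calls, and 82% for the difference from WT with 9. The changed genes were drawn from those above a minimum fitted count, and the simulated spread was the one fitted here. These rates therefore do not cover genes with few counts, nor the shifts seen when a library was left out. Alternatives were another scaling, filter, line per symbol, set of libraries, tool (DESeq2 1.42.0) and no replicate block, and each library left out. A few named genes are not reported here.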

Additional observations from a re-analysis of the deposited data

Results flagged for a closer look

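A change between days that differed from that of another genotype by a test of the difference itself was reason for a closer look. Against WT this held for 3 genes, with differences on the log2 scale (DKO minus WT) of 2.32 for D1Pas1, 2.05 for Dnmt3l and 1.36 for Cldn4. D1Pas1 fell in both genotypes and less in DKO, and Dnmt3l was not called in DKO. Cldn4 rose in both and more in DKO, where its day 0 values were below those of WT and its day 6 values above them. None was called once a DKO library was left out.

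Against Tet2-/- it held for 958 genes. The largest positive differences (DKO minus Tet2-/-, log2) reported here were those of Klhl6 (6.17), Krt19 (4.50), Trpm1 (4.40), 2310007B03Rik (4.36), Serpinb6b (4.26), Cfc1 (4.11), Rspo3 (3.93), Limch1 (3.73) and Anxa1 (3.72). Krt19 is an epithelial gene, Cfc1 a Nodal coreceptor, Rspo3 a Wnt agonist and Anxa1 an annexin. Trpm1 fell in both genotypes and less in DKO. In DKO it went from 2.4 and 1.03 CPM to 0.197 and 0.244 CPM. In Tet2-/- it went from 5.72 and 5.17 CPM to 0 and 0.0697 CPM, near the limit of detection. The largest negative differences were those of Sema6a (-4.14), Bcl11a (-3.83), Inhbb (-3.74), Gbx2 (-3.73), Robo4 (-3.59), Tnfsf11 (-3.58), Wt1 (-3.48), Myo1f (-3.45), Zfyve28 (-3.40) and Halr1 (-3.31). Inhbb, Gbx2, Robo4, Myo1f and Halr1 were also among the largest decreases of DKO itself, and Bcl11a and Wt1 encode transcription factors. At day 6 the Wt1 values overlapped, at 5.65 and 6.73 CPM in DKO and 8.84 and 6.45 CPM in Tet2-/-. At day 0 they were 2.8 and 3.05 CPM in DKO and 0.299 and 0.321 CPM in Tet2-/-. Differences of genes described in the text were positive for Krt8 (2.85), Krt18 (2.05), Tpm1 (1.83), Myh9 (1.65), Peg3 (3.53), Tapbp (2.37), H2-K1 (1.43), Mixl1 (3.37), Socs3 (1.82) and Cldn4 (3.26), and negative for Nr0b1 (-2.81), Zfp42 (-1.65), Spry4 (-2.51) and Esrp1 (-1.62). The Tet2-/- group had 2 clones, as DKO had, and without any 1 library of either genotype 65 to 116 genes were called. Of the genes with the largest differences, Klhl6, Trpm1, 2310007B03Rik, Serpinb6b, Cfc1, Rspo3, Limch1, Sema6a, Bcl11a, Robo4, Tnfsf11, Wt1, Myo1f, Zfyve28 and Halr1 lost their call whichever library was left out and Krt19 and Anxa1 in some of these fits, while Inhbb and Gbx2 kept theirs. The fitted difference itself ranged in these fits from 4.59 to 9.22 for Klhl6, from 3.29 to 7.44 for Trpm1 and from -3.38 to -7.30 for Sema6a. At day 6 the Sema6a values of the genotypes overlapped, at 64.1 and 71.3 CPM in DKO and 74.8 and 67.6 CPM in Tet2-/-, and its difference lies in day 0, at 0.666 and 0.64 CPM in DKO and 0 and 0.0584 CPM in Tet2-/-.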

How the results depend on the processing

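The count of genes called in DKO between the days was 4614 and stayed between 3303 and 4817 under every alternative run, with 3303 and 3312 without clone DKO_5.12 (day 0 or day 6 library) and 3922 and 3924 without clone DKO_5.11. Without a replicate block it was 4564, and that fit ended the calls of few named genes, given beside their values. Library totals in place of TMM gave 75.0% of calls as higher against 63.5%, and for the difference from Tet2-/- 73% against 65.6%. None of 323 called list genes took another sign under any of 13 alternatives. The correlation of the clones moved from 0.956 to 0.967 with a pseudocount of 2 CPM.

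Differences between genotypes were less stable. For DKO against WT the count was 3 and became 0 without the replicate block, 9 with library totals, 45 without a low-count filter, 1 with at least 1 CPM in 2 libraries, 116 with DESeq2, 8 with only the libraries compared, and 0 to 148 when a library was left out. For DKO against Tet1-/- it was 0 and became 2 with DESeq2 and 9 with only the libraries compared. For DKO against Tet2-/- it was 958 and became 1974 with only the libraries compared, 732 without the replicate block, and 65 to 116 when a library was left out; without the replicate block the differences of Zfp42 (adjusted p = 0.0889), Mixl1 (adjusted p = 0.0551) and Rspo3 (adjusted p = 0.30) from Tet2-/- lost their calls, as did those of Klhl6, Trpm1 and Cfc1. Fits without a library hold fewer clones, and the cause of the other shifts was not tested. Leaving out the ribosomal RNA line, chosen after seeing the data, gave 4614, 3, 0 and 959. The depth allows up to 3 counts where none were seen, and most values of Hox, cardiac and blood genes lie near that limit.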
